A study of Homo sapiens with 27 samples.

Results

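The replication-dependent histone genes were 65 protein-coding genes of the 61533 genes in the count table. They were chosen by symbol alone, as the H1 genes H1-1 to H1-5 and the H2AC, H2BC, H3C and H4C genes, without use of any count. They held 5 H1, 16 H2A, 17 H2B, 13 H3 and 14 H4 genes, 54 of them on chromosome 6 and 11 on chromosome 1. The RNA came from the 92.1 uveal melanoma line, an established *GNAQ* mutant line, so that all groups carried this mutation. Cultures were kept in DMSO or in 100 nM VS-4718 (FAKi), a small-molecule inhibitor of focal adhesion kinase (FAK). The 9 groups of 3 libraries were DMSO at day 0, then FAKi and DMSO at each of days 3, 7, 14 and 21. The study's methods describe both repeat platings and repeats of the whole experiment, and the labels do not say which a replicate number stands for, so p-values measure the spread between these libraries, which may be technical.

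Core histones H2A, H2B, H3 and H4 form the protein spool around which DNA is wound, and linker histones H1 bind where the DNA enters and leaves it. The replication-dependent genes are transcribed in S phase, and their messages usually end in a conserved stem-loop instead of a poly(A) tail. Stem-loop binding protein, SLBP, directs the processing and translation of these messages, and when replication stops they are degraded. Several of the genes can also give a longer, polyadenylated message, which has been described in cells that leave the cell cycle. The libraries were made with a kit that selects polyadenylated RNA, so these data bear mainly on such messages and on what was carried along.

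Library totals ran from 12161994 to 43651551 counts, and the histone genes took between 528 and 2858 of them. Of 8 melanocyte lineage markers, PRAME reached at most 0.487 CPM and the others were expressed in all libraries, with TYRP1 at a median of 5460 and PMEL at 4513 CPM, TMM-scaled counts relative to library size, while the leukocyte marker PTPRC and the epithelial marker EPCAM had a median of 0. The fibroblast genes COL1A1 and LUM were detected, at 3.13 to 9.90 and 1.43 to 8.66 CPM, and the 6 markers of other cells summed to 5.98 to 17.4 CPM. The library labelled FAKi day 7 replicate 1 stood apart. Its root-mean-square difference from FAKi day 14 replicate 1 was 0.133 on the log2 CPM scale, below that of any replicate pair, and 0.579 and 0.621 from its own replicates. Its counts differed from FAKi day 14 replicate 1 by a chi-square of 1.62 per degree of freedom, whereas the 27 replicate pairs gave 2.87 to 205. DMSO day 3 replicate 1 lay closest to a day 0 library, at 0.205, and DMSO day 21 replicate 3 was 0.596 and 0.614 from its replicates. The description of DMSO day 21 replicate 3 has an extra digit in the day, while its title gives day 21, and it was kept as labelled. Counts of called genes and sums that rest on these 3 libraries are mostly also given without them or library by library.

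To show the feature that the histone genes share, stem-loop elements were read from hg38, GENCODE 44. The stem-loop stood within 150 bases of the stop codon in all 65 genes and came in 10 forms. Only 0.405% of 19511 protein-coding transcripts held the searched motif. The elements of the most abundant genes of each class, and of one gene with a form of its own, are shown 5′ to 3′ with the stem and loop in capitals.
H1-2 (chr6:26055739-26055764, minus strand): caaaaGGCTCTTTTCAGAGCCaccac
H2AC6 (chr6:26124664-26124689, plus strand): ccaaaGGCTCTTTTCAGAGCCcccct
H2BC12 (chr6:27146361-27146386, minus strand): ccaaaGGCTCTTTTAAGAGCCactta
H3C6 (chr6:26225591-26225616, plus strand): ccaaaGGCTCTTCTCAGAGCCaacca
H4C14 (chr1:149833027-149833052, plus strand): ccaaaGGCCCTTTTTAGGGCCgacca
H2AC15 (chr6:27837880-27837905, minus strand): aaaaaGGTTCTTTTCAGAGCCaccta
The form of H1-2 and H2AC6 was the commonest, in 38 genes from all classes except H4. The form of H2BC12 was carried by 8 genes, among them H2BC5 and H2BC4. The H4 genes had forms of their own, of which 1 was found in 9 genes and that of H4C14 in 4. The forms of H3C6 and H2AC15 occurred in 1 gene each.

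Counts were made on a single transcript per gene, and this transcript differed in kind between the histone genes. In 50 genes it ended at the stem-loop, in 14 genes it was spliced or ran past the stem-loop, and for H2AC8 it was not in GENCODE 44. The 14 genes with a longer transcript held 28042 of the 39481 histone counts, with a median of 1279 counts per gene over the 27 libraries. The 50 genes that end at the stem-loop held 29.0%, with a median of 19.5 counts, and 25 of them had fewer than 20 counts. These counts are not scaled for transcript length, which differs between the kinds. In CPM per kilobase of counted transcript, the median level was 0.691 in the 14 genes and 0.0605 in the 50. Of the 10 histone genes with at least 1000 counts, 8 had the longer transcript. The 2 exceptions were H2BC12, with 6193 counts, and H1-2, with 1810. A poly(A) signal, AATAAA or ATTAAA in the last 50 bases, was found in 14 of 64 histone transcripts, or 21.9%, against 73.5% of all protein-coding transcripts. Those 14 genes held 70.8% of the histone counts.

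**Figure D1:**
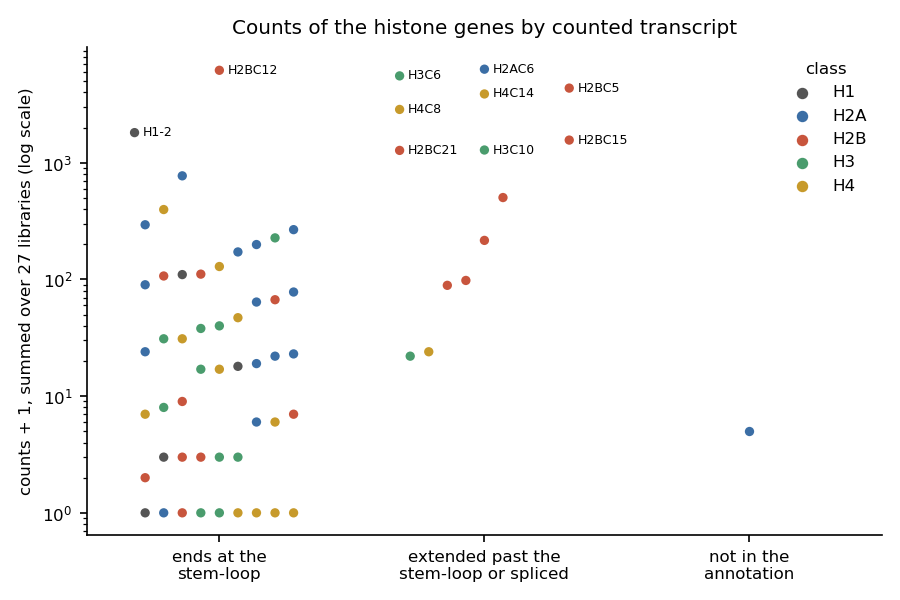
Counts of each histone gene summed over the 27 libraries, plus 1, on a log axis, by the kind of transcript on which they were counted, with colours for the 5 classes. Genes with at least 1000 counts are named, and of these 8 sit in the column of extended or spliced transcripts, while the column of transcripts that end at the stem-loop holds H2BC12, H1-2 and a majority of low genes.

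No count was recorded for 9 of the 65 genes, 17 had between 1 and 19 counts in all, and 16 were seen in each of the 27 libraries. H2B genes gave 37.0% of the histone counts, H2A genes 21.2%, H4 genes 18.7%, H3 genes 18.3% and H1 genes 4.91%. The 6 genes with the most counts, H2AC6, H2BC12, H3C6, H2BC5, H4C14 and H4C8, held 73.9% of the total. Per kilobase of counted transcript (RPKM), the highest mean level over the 27 libraries was that of H2BC12, a core H2B gene, at 18.2, with a range of 6.63 to 27.7. It lay above the next gene, H2BC5, in 27 of 27 libraries. H2BC5, at 8.06, lay above H2AC6, at 5.59, in 25 libraries, and H2AC6 lay above H4C14, at 3.75, in 23. H4C14 and H1-2, at 3.68, changed places, with H4C14 higher in 17 libraries. H1-2 was higher than H3C6, at 3.06, in only 11 libraries, its mean being raised by a few libraries described below. In their classes H2AC18 came second among H2A genes at 2.08 RPKM, H4C8 among H4 genes at 1.95, H3C10 among H3 genes at 1.53 and H1-4 among H1 genes at 0.233.

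Some of these genes cannot be told apart by their sequence. Every 50-base window of the counted H4C14 transcript also occurs in H4C15, and every window of H2AC18 in H2AC19, so their counts may be split or shared between the copies. Of the windows of H2BC12, 57.2% occur elsewhere, most of them in H2BC12L and in an annotated duplicate of that gene. No window of H1-2, H4C8 or H3C10 was shared with another gene. For H2BC4, 60.1% of the transcript lies opposite another gene, and the strand setting of the counting is not stated.

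Upstream sequence was in the RefSeq promoter table, build GRCh38.p14, for 60 of the 65 histone genes. The octamer ATTTGCAT, on either strand, was present in 14 of 17 H2B promoters and 11 of 15 H2A promoters, in 0 of the H1, H3 and H4 promoters, and in 1.77% of all 35116 promoters of the table. CCAAT was present in 85% of the histone promoters against 34.6% of all, and TATAAA in 68.3% against 11.5%. The sequence AAACACA of the H1 box was present in 5 of 5 H1 promoters against 5.64% of all. The 150 bases before the start are shown for the H1 gene and the H2B gene that passed a test below, with these motifs in capitals and overlapping motifs merged.
H1-2 (chr6:26056471-26056620, minus strand): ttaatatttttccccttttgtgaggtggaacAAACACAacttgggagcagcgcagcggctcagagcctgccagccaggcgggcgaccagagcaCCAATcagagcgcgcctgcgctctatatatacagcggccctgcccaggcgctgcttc
H2BC12 (chr6:27146856-27147005, minus strand): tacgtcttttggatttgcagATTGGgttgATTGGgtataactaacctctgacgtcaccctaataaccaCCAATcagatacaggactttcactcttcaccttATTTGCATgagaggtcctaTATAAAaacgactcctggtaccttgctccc
H1-2 thus shows the H1 box and CCAAT but not the letters TATAAA in this window, and H2BC12 shows CCAAT on both strands, the octamer and TATAAA. A match of letters is a description of the window and not a site of binding.

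The question of the comparison was whether the level of histone messages differed between FAKi and DMSO over the 21 days. The summed level of the 65 genes, in CPM scaled with TMM over all libraries, was 51.23, 58.02 and 52.99 in the day 0 libraries. At day 3 it was 44.0, 39.16 and 36.02 in FAKi and 54.80, 57.70 and 66.96 in DMSO. At day 7 it was 71.51, 55.80 and 54.70 in FAKi and 45.61, 42.10 and 45.95 in DMSO. All 3 FAKi libraries thus lay below DMSO at day 3 and above it at day 7. At day 14 the sum was 70.15, 69.90 and 66.45 in FAKi against 54.59, 58.76 and 52.49 in DMSO, again without overlap. At day 21 it was 66.17, 64.63 and 64.07 in FAKi against 81.81, 79.51 and 63.38 in DMSO, and the groups overlapped. In RNA from a whole culture, fewer cells in S phase and less histone RNA per cell cannot be told apart.

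As means, the sum was 39.7 ± 4.02 (SD, n = 3) in FAKi and 59.8 ± 6.35 in DMSO at day 3, a difference of -33.6%. It was 60.7 ± 9.40 against 44.6 ± 2.13 at day 7, a difference of 36.2%, or 24.01% without FAKi day 7 replicate 1. It was 68.8 ± 2.07 against 55.3 ± 3.19 at day 14, a difference of 24.5%. It was 64.96 ± 1.09 against 74.9 ± 10.0 at day 21, a difference of -13.3% that turned to 3.26% as a share of the library total, without TMM, and to 7.86% when mitochondrial genes were left out of that total. The share of mitochondrial genes was 10.7% to 11.2% in FAKi and 5.49% to 9.75% in DMSO at day 21. Without DMSO day 21 replicate 3 the groups did not overlap in TMM-scaled CPM, with a difference of -19.5%. No direction is therefore given for the sum at day 21. At days 3, 7 and 14 the direction was the same under these scalings, without any of the 6 most abundant genes and without all 6 of them. The 6 genes known to give polyadenylated messages as well, H1-2, H2AC6, H2BC4, H2BC5, H2BC12 and H2BC21, did not overlap between the groups in their sum at any of the 4 days. At day 3 this sum differed by -39.0% and at day 21 by -24.5%, whereas at days 7 and 14 it was higher in FAKi by 51.6% and 31.6%. At day 7 it was 43.1, 27.2 and 26.4 CPM in FAKi against 22.1, 20.5 and 21.2 in DMSO, so replicate 1 raised the difference. At day 21 it was 29.1, 27.9 and 28.9 against 40.8, 41.1 and 31.9 CPM. The scalings that turned the day 21 sum of the 65 genes were not applied to this sum. No p is given for these sums, since 3 libraries against 3 cannot give an exact permutation p below 0.1.

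**Figure D2:**
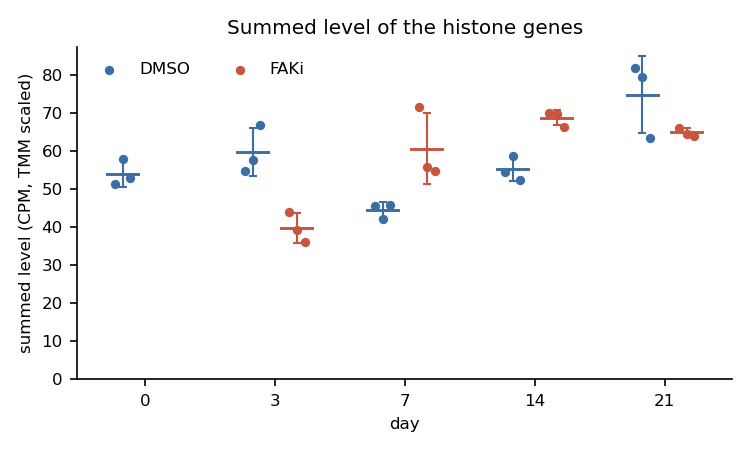
Summed level of the 65 histone genes in CPM (vertical axis, from 0) by day of sampling, with a point for each library and lines for the mean ± SD of 3 libraries in DMSO (blue) and FAKi (red). FAKi libraries sit between 36.02 and 44.0 at day 3, below all DMSO libraries of that day, and above the DMSO libraries at days 7 and 14, where the highest FAKi library of day 7 is replicate 1.

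At day 3 the abundant histone genes were lower in FAKi than in DMSO, while 9 of the less abundant ones had a log2 fold change above 0, and none of these differences passed the adjusted test. H2BC12 was at 6.68, 5.40 and 3.27 CPM in FAKi and at 9.48, 10.2 and 11.2 in DMSO, without overlap. Its log2 fold change was -0.98 with a standard error (SE) of 0.25 and an adjusted p of 0.0978 by edgeR's quasi-likelihood test, adjusted after Benjamini and Hochberg, the smallest among the histone genes. H3C6, a core H3 gene, was at 6.68, 4.66 and 4.84 against 8.74, 8.69 and 9.11 CPM, with a log2 fold change of -0.69. H4C14, a core H4 gene, was at 3.99, 3.70 and 3.27 against 4.58, 7.15 and 8.63 CPM, with a log2 fold change of -0.87. H2AC6, a core H2A gene, was at 5.38, 5.85 and 4.91 against 6.94, 7.88 and 8.37 CPM, with a log2 fold change of -0.51. These 4 genes did not overlap between the groups, and their adjusted p ranged from 0.0978 to 0.158. The linker gene H1-2 overlapped, at 1.34 to 1.78 against 1.31, 3.80 and 6.07 CPM. The low linker gene H1-4 went the other way, at 0.336, 0.592 and 0.614 against 0.0890, 0.146 and 0.219 CPM, with a log2 fold change of 1.77, an SE of 0.57 and an adjusted p of 0.123.

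Of the 27 histone genes tested at day 3, 0 were called at both thresholds, which were an adjusted p no higher than 0.05 and a change of more than 1 on the log2 scale in either direction, and 0% of all 22846 genes were. DESeq2 also called 0 of the 27, while it called 3.3% of all genes. An unadjusted value under 0.05 was reached by 7 histone genes, 1 higher and 6 lower, in edgeR and by 7 in DESeq2, beside 23.8% of all genes in edgeR. Groups did not overlap for 6 histone genes lower in FAKi, beside 15.8% of all genes, and for 2 higher, H1-4 and H2AC11, beside 15.1%. The share of histone genes at the unadjusted threshold, 25.9%, was thus near that of all genes. Their median log2 fold change was -0.27, against -0.02 over all genes, and the 10 genes with at least 1000 counts all lay below 0, from -1.25 to -0.23. Without DMSO day 3 replicate 1, which leaves 2 DMSO libraries, 3 histone genes were called lower, H1-2, H2BC12 and H4C14, beside 12.7% of all genes. Non-polyadenylated RNA genes, a list of 18 such as RN7SL1 that a poly(A) selection should leave behind, summed to 4.81, 15.4 and 21.7 CPM in the DMSO libraries and to a mean of 5.65 ± 0.311 (SD, n = 3) in FAKi. The mitochondrial share was 18.1%, 9.59% and 8.61% in the same DMSO libraries and 16.8% to 18.7% in FAKi. The part of either in the day 3 values was not tested.

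At day 7 no histone gene passed the adjusted test. Among the histone genes tested, all FAKi libraries lay above DMSO for 2 H2A and 3 H2B genes, and for no H1, H3 or H4 gene. H4C9, with too few counts to be tested, also lay above, at 0.149, 0.206 and 0.177 against 0.0366, 0 and 0 CPM. H2BC21, an H2B gene of chromosome 1 that also gives polyadenylated messages, was at 3.57, 2.55 and 1.95 CPM in FAKi and at 1.21, 0.948 and 1.18 in DMSO. Its log2 fold change was 1.26 with an SE of 0.31 and an adjusted p of 0.279 by edgeR. H2AC6 was at 11.9, 8.27 and 10.3 against 7.75, 5.94 and 6.30 CPM, with a log2 fold change of 0.60. H2BC5 was at 10.4, 4.53 and 5.55 against 3.91, 4.24 and 4.09 CPM, and its highest value was that of FAKi replicate 1. H3C6, by contrast, was at 6.99, 7.41 and 7.55 against 7.50, 6.33 and 7.61 CPM and overlapped, as did H4C14 at 4.26, 6.79 and 4.31 against 5.63, 3.99 and 4.83. H1-2 overlapped too, at 2.68, 1.60 and 1.71 against 2.01, 1.30 and 2.17 CPM.

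None of the 26 histone genes tested at day 7 was called by edgeR, beside 0.0269% of all 22299 genes, or by DESeq2, beside 0.457%. At the unadjusted threshold there were 6 histone genes in each tool, all higher in FAKi, beside 8.77% of all genes. The groups did not overlap for 5 histone genes higher in FAKi, H2AC6, H2AC15, H2BC5, H2BC15 and H2BC21, beside 8.24% of all genes, and for 0 lower, beside 8.46%. Their median log2 fold change was 0.54, with 23 of 26 above 0, against 0.01 over all genes. Without FAKi replicate 1 the median of the 22 genes then tested was 0.33, 3 reached the unadjusted threshold and 0 were called, beside 1.14% of all genes. By class, the H2B sum was 33.5, 21.5 and 19.1 CPM in FAKi against a mean of 15.5 ± 0.535 in DMSO, and the H2A sum 16.4, 12.1 and 12.5 against 9.29, 8.53 and 9.50, both without overlap. The H3 and H4 sums overlapped, at means of 9.89 against 9.50 and 10.2 against 8.44 CPM.

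At day 14 the difference was carried by H2B genes. H2BC12 was at 12.4, 12.4 and 13.4 CPM in FAKi and at 6.01, 6.92 and 8.09 in DMSO, without overlap. It rose by a log2 fold change of 0.86 with an SE of 0.18 and an adjusted p of 0.00227 by edgeR, short of the fold threshold, and its adjusted p lay between 2.61e-04 and 0.0148 over 13 alternative settings. H2BC4, another H2B gene with polyadenylated messages, was at 0.932, 0.870 and 0.940 against 0.283, 0.317 and 0 CPM, with a log2 fold change of 2.16, an SE of 0.97 and an adjusted p of 0.169. H2BC21 was at 3.82, 3.79 and 2.35 against 1.79, 2.86 and 1.01 CPM and overlapped. Other abundant genes were close to DMSO, with H2AC6 at 13.2, 12.9 and 12.3 against 15.4, 10.7 and 10.7 CPM and H3C6 at 7.19, 8.73 and 7.37 against 7.80, 7.97 and 6.20. H4C14 and H1-2 overlapped as well, with log2 fold changes of -0.05 and 0.14. The H2B sum was 31.8, 33.0 and 31.9 CPM in FAKi against 19.6, 23.7 and 19.8 in DMSO, while the sums of the 4 other classes overlapped.

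Among the 23 histone genes tested at day 14, 0 were called at both thresholds by edgeR, beside 1.66% of all 23443 genes, and 0 by DESeq2, beside 1.65%. In edgeR 1, H2BC12, passed the adjusted p alone, beside 2918 of all 23443 genes that passed the adjusted p. Unadjusted values under 0.05 were found for 3 histone genes, all higher, in edgeR and for 2 in DESeq2, beside 24.6% of all genes in edgeR. Groups did not overlap for 3 histone genes higher in FAKi, H2BC4, H2BC6 and H2BC12, beside 15.2% of all genes, and for 0 lower, beside 13.8%. The median log2 fold change was 0.25 and 19 of 23 lay above 0, against a median of -0.01 over all genes. Non-polyadenylated RNA genes summed to 5.17 to 5.50 CPM in FAKi and to 2.16 to 4.88 in DMSO, without overlap, and their part in these values was not tested.

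At day 21 the linker gene H1-2 was lower in FAKi than in DMSO. It was at 2.07, 2.27 and 2.04 CPM in FAKi and at 9.62, 8.06 and 5.18 in DMSO, so that the lowest DMSO library, replicate 3, still lay above all FAKi libraries. H1-2 fell by 1.79 on the log2 scale (SE 0.26), with an adjusted p of 0.00750 by edgeR, and was the 1 histone gene called at both thresholds. The call was lost without FAKi replicate 2 or replicate 3, at adjusted p of 0.0585 and 0.0603, and held in the other 11 of 13 alternatives, where the log2 fold change lay between -2.00 and -1.60. The levels of the FAKi libraries fell within the range of the day 0 libraries, 1.56 to 2.85 CPM. H2BC5 was at 5.38, 3.86 and 4.30 against 8.33, 9.03 and 6.20 CPM, also without overlap, with a log2 fold change of -0.75, an SE of 0.22 and an adjusted p of 0.0580. At this day same-numbered libraries deviated together, so a fit with the replicate number as a block was also made. In the paired fit 2 histone genes were called, H1-2 and H2AC18, the latter at a log2 fold change of -1.16 and an adjusted p of 0.0431, beside 8.94% of all genes called in that fit, and H2BC5 passed the adjusted p alone. H2AC18, an H2A gene, was at 1.59, 0.529 and 0.573 against 2.72, 2.56 and 1.02 CPM.

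Other abundant histone genes stood at similar levels in both groups at day 21. H2BC12 was at 9.51, 10.2 and 10.7 against 12.1, 10.1 and 10.6 CPM, H3C6 at 11.3, 10.4 and 10.7 against 11.0, 9.43 and 9.40, and H2AC6 at 9.94, 10.2 and 9.98 against 9.16, 12.4 and 8.29. H4C14 was at 9.47, 11.3 and 8.57 against 11.9, 9.77 and 7.55 CPM. None of these 4 had an adjusted p below 0.445 by edgeR. Of the 22 histone genes tested, 1 was called, beside 5.28% of all 23212 genes, and 4 reached the unadjusted threshold, 1 higher and 3 lower, beside 32.6%. Groups did not overlap for 2 histone genes lower in FAKi, H1-2 and H2BC5, beside 18.9% of all genes, and for 2 higher, H2AC11 and H2AC15, beside 16.5%. The median log2 fold change was 0.06, against 0.01 over all genes, and changed sign in 4 of 13 alternatives. Without DMSO replicate 3, 3 histone genes were called lower, H1-2, H2AC18 and H4C12, beside 18.7% of all genes. Non-polyadenylated RNA genes summed to 14.4, 16.9 and 13.4 CPM in FAKi and to 23.6, 25.7 and 11.2 in DMSO, and their part in the day 21 values was not tested.

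**Figure D3:**
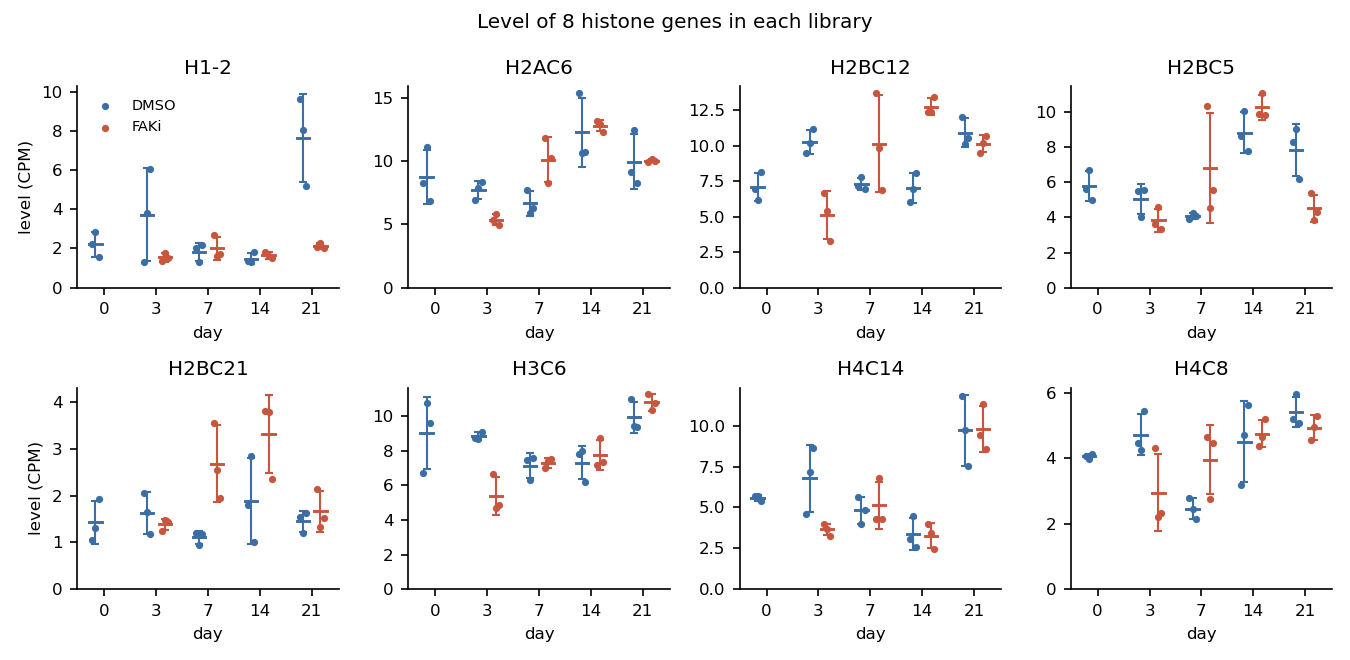
Level in CPM (vertical axes, each from 0) of 8 histone genes by day, with a point for each library and lines for the mean ± SD of 3 libraries in DMSO (blue) and FAKi (red). H1-2 is high in the 3 DMSO libraries of day 21 and in 2 of the 3 of day 3, and H2BC12 is lower in FAKi at day 3, higher at day 14 and level at day 21.

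**Figure D4:**
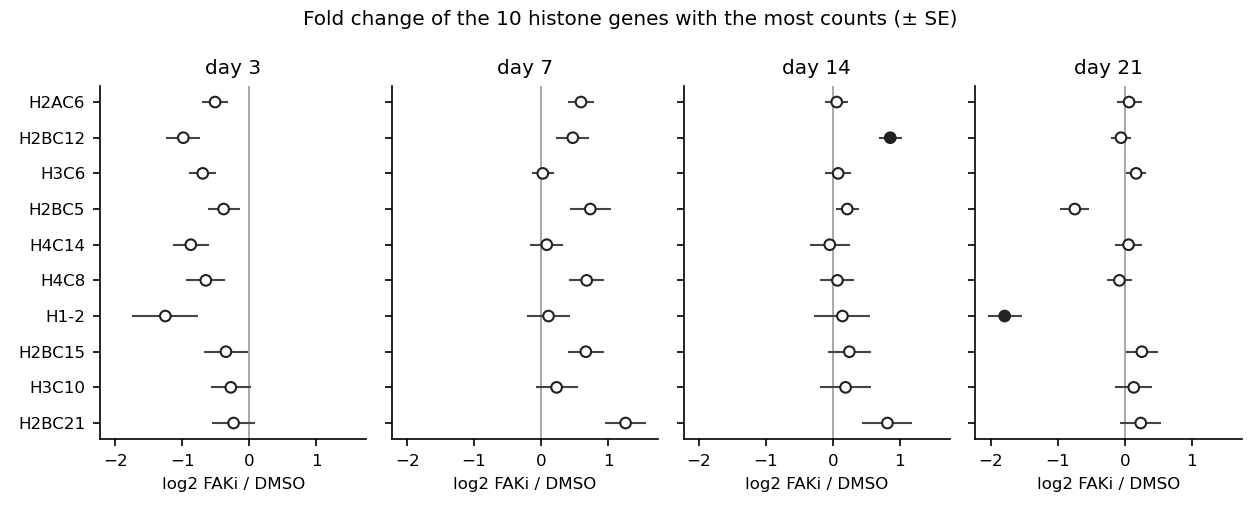
Log2 fold change of FAKi over DMSO (horizontal axis) ± SE at each day for the 10 histone genes with at least 1000 counts, fitted by edgeR with 3 libraries per group, where filled points have an adjusted p of at most 0.05. All 10 lie below 0 at day 3 and above 0 at day 7, and the 2 filled points are H2BC12 at day 14 and H1-2 at day 21.

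Control cultures were sampled over the same days, and DMSO at day 21 was compared with DMSO at day 0. H1-2 went from 2.23, 2.85 and 1.56 CPM at day 0 to 9.62, 8.06 and 5.18 at day 21. It rose by a log2 fold change of 1.80 with an SE of 0.31 and an adjusted p of 0.00382 by edgeR, and was called under all 13 alternatives. H4C14 went from 5.69, 5.70 and 5.38 to 11.9, 9.77 and 7.55 CPM and H2BC12 from 6.93, 6.19 and 8.12 to 12.1, 10.1 and 10.6. Both rose by the adjusted p alone, with log2 fold changes of 0.80 and 0.61 and adjusted p of 0.0138 and 0.0195. These passes were lost in 4 of 13 alternatives for H4C14 and 3 of 13 for H2BC12, where the adjusted p reached 0.0626 and 0.0896, each time with 1 library left out. H3C6 and H2AC6 overlapped between the days. Of 22 histone genes tested 1 was called, beside 23.3% of all 22259 genes, and 3 passed the adjusted p, beside 9986 of all genes. At the unadjusted threshold there were 4, all higher, beside 53.8%.  Without DMSO day 21 replicate 3 the count was 3 of 19, H1-2, H2AC18 and H2AC20, beside 36.9% of all genes. In the same libraries 4 of the 6 non-polyadenylated RNA genes tested were called higher, among them RN7SL1 with a log2 fold change of 3.93 and an adjusted p of 0.00169, and the mitochondrial share was 17.0% to 18.8% at day 0 and 5.49% to 9.75% at day 21. In FAKi at day 21 the non-polyadenylated sum, 13.4 to 16.9 CPM, was above its 4.46 to 6.43 at day 0, while H1-2 was at 2.04 to 2.27 CPM. In DMSO at day 3 H1-2 was at 1.31, 3.80 and 6.07 CPM, with sums of 4.81, 15.4 and 21.7 in the same libraries. In DMSO at day 21 the sums were 23.6, 25.7 and 11.2 CPM. The part of non-polyadenylated RNA or of the mitochondrial share in the rise of H1-2 was not tested.

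Whether the effect of FAKi itself differed between days was tested as an interaction of treatment and day, first against last day as planned and day 3 against days 7 and 14 after the daily levels had been seen. By their labels the days share no libraries, but the day 3 libraries enter all 3 tests. FAKi day 7 replicate 1 also nearly matches FAKi day 14 replicate 1, so the results for days 7 and 14 may not be independent. From day 3 to day 14 the log2 fold change of H2BC12 went from -0.98 to 0.86, a change of 1.84 with an SE of 0.31 and an adjusted p of 0.00262 by edgeR. It was the 1 of 30 histone genes called, beside 4.33% of all 25523 genes, it was called by DESeq2 too, and its adjusted p was at most 0.0122 in 19 alternatives. At the unadjusted threshold there were 5, all higher, beside 24.9%. Without DMSO day 3 replicate 1, 3 of 29 were called higher, H1-2, H2BC12 and H4C14, beside 11.1% of all genes. From day 3 to day 7, 0 of 32 histone genes were called by edgeR, beside 0% of all 24761 genes, and 0 by DESeq2, beside 0.162%. Here 10 histone genes reached the unadjusted threshold in edgeR and 9 in DESeq2, all 10 higher, beside 10.5% of all genes, and the smallest adjusted p was 0.413. The median change was 0.92, or 0.66 without FAKi day 7 replicate 1, against 0.04 over all genes. Without DMSO day 3 replicate 1, 4 histone genes of 29 were called higher, H1-2, H2AC6, H2BC12 and H4C14, beside 5.11% of all genes. From day 3 to day 21, 0 of 31 were called by edgeR, beside 2.22% of all 25389 genes, and 0 by DESeq2, beside 4.37%, with 5 at the unadjusted threshold in edgeR and 4 in DESeq2, beside 19.1%. H3C6 had the smallest adjusted p there, 0.0725, with a change of 0.84 and an SE of 0.24. H4C14 was called higher without DMSO day 3 replicate 1, beside 5.51% of all genes.

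S phase genes, 22 genes of DNA replication and nucleotide supply, lay on the other side from the histone genes at day 3. They summed to 1199, 1481 and 1335 CPM in FAKi against 1014, 926 and 970 in DMSO at that day. All 22 had a log2 fold change above 0, with a median of 0.51. None was called by edgeR, and 14 reached the unadjusted threshold, beside 23.8% of all genes. RRM2, a subunit of ribonucleotide reductase, had the largest log2 fold change of the 3 genes with the smallest adjusted p, 1.31 at 0.0945. CDC45, GINS4 and RRM2 were called higher without DMSO day 3 replicate 1, beside 12.7% of all genes called. At day 7 the FAKi libraries summed to 2567, 900 and 809 CPM against 879, 1043 and 1008, with replicate 1 far above the others. Without it the difference of the means was -12.5% and the groups still overlapped. At day 14, 19 S phase genes passed the adjusted p, all higher, and CDC45 and CDC6, which load and fire replication origins, were called with log2 fold changes of 1.20 and 1.09. Of all 23443 genes, 2918 passed the adjusted p at day 14 and 1.66% were called. At day 21, 9 S phase genes passed the adjusted p, all lower, and 3 were called, TK1, CDT1 and GINS2, with log2 fold changes from -1.30 to -1.04. Of all 23212 genes, 2692 passed the adjusted p at day 21 and 5.28% were called. Without DMSO replicate 3, TK1, CDT1, GINS2 and TYMS were called lower, beside 18.7% of all genes called. In that setting 14 S phase genes passed the adjusted p lower, and the share of all genes that passed it is not given here. From day 3 to day 21 the effect on 11 S phase genes changed downwards past both thresholds. Of the 31 histone genes tested, 0 were called in either direction, beside 2.22% of all 25389 genes. Low counts of most histone genes limit a comparison of the 2 lists.

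**Figure D5:**
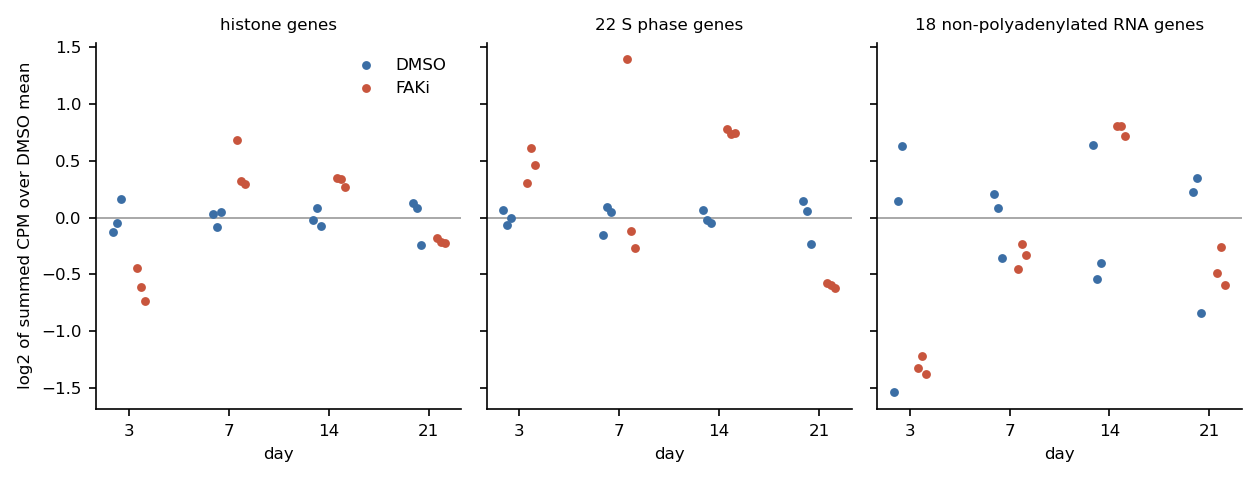
Log2 of the summed CPM of each library over the mean of the 3 DMSO libraries of its day (vertical axis, the same in all panels) for the 65 histone genes, 22 S phase genes and 18 non-polyadenylated RNA genes, with DMSO in blue and FAKi in red. At day 3 the FAKi libraries lie below the line for histone genes and above it for S phase genes, and at day 7 replicate 1 of FAKi lies far above its replicates in the S phase panel.

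Genes that make or process histone messages, a list of 22, summed to 1455 ± 34.3 CPM (SD, n = 3) in FAKi against 1312 ± 38.0 in DMSO at day 3, without overlap. Their sum was also higher without overlap at days 7 and 14, by 8.52% and 9.27%, and overlapped at day 21. CDK2, at a median of 597 CPM over the libraries, was the largest part of this sum. By gene, 14, 12 and 16 of the 22 had a log2 fold change above 0 at days 3, 7 and 14, with medians of 0.13, 0.04 and 0.17. SLBP was at 45.6, 45.7 and 49.2 CPM in FAKi against 43.4, 47.8 and 50.5 in DMSO at day 3, with a log2 fold change of 0.00, and at 43.2, 43.3 and 38.0 against 58.2, 65.8 and 47.5 at day 21, where the log2 fold change was -0.41 and the adjusted p 0.0969 by edgeR. NPAT, the coactivator of histone transcription, differed by 0.49, 0.37, -0.01 and 0.61 on the log2 scale over the 4 days in order, and none passed the adjusted p. Without DMSO replicate 1 at day 3 and DMSO replicate 3 at day 21, NPAT passed it at both days, at 0.0211 and 0.00393, and SLBP at day 21, at 6.84e-04, all short of the fold threshold. Of this list of 22 genes, 0 were called by edgeR at days 3, 7 and 14, with 5, 1 and 8 at the unadjusted threshold, and 1 at day 21, CASP8AP2, a factor of histone gene transcription, which rose by a log2 fold change of 1.16. Of all genes, 23.8%, 8.77% and 24.6% reached the unadjusted threshold at days 3, 7 and 14. At day 21, 5.28% of all genes were called. At each of days 14 and 21, 3 genes of the list passed the adjusted p, called ones included, and at day 21 11 reached the unadjusted threshold, 5 higher and 6 lower, beside the 32.6% of all genes. The adjusted p was passed by 2918 of all 23443 genes at day 14 and 2692 of 23212 at day 21. Without DMSO day 3 replicate 1, CASP8AP2 and TUT7 were called higher at day 3, and without DMSO day 21 replicate 3, CASP8AP2 was called higher and E2F1 lower at day 21. In these settings 12.7% and 18.7% of all genes were called, in that order. Among 18 histone chaperones and import factors, 4 were called at day 14, with TONSL and CHAF1B among the 3 higher ones and NAP1L1, at a log2 fold change of -1.02, the 1 lower. Of all genes, 1.66% were called at day 14. None of the 18 was called by edgeR at days 3, 7 or 21. The unadjusted threshold was reached by 7, 0 and 5 of them, beside 23.8%, 8.77% and 32.6% of all genes. Without DMSO day 3 replicate 1, 3 were called higher at day 3, CHAF1A, CHAF1B and MMS22L, beside 12.7% of all genes called.

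Replication-independent histone variants mostly give polyadenylated messages outside S phase as well, and H2AX gives both a stem-loop and a polyadenylated message. Of the 10 tested at day 21, all had a log2 fold change below 0, with a median of -0.66. H2AZ1 was at 266, 239 and 214 CPM in FAKi against 636, 625 and 392 in DMSO, and H2AX at 20.1, 19.9 and 17.4 against 49.4, 47.3 and 24.4. Both were called, at log2 fold changes of -1.15 and -1.02 and adjusted p of 0.0146 and 0.0365 by edgeR, and 3 more passed the adjusted p but not the fold threshold, all lower. Of all 23212 genes, 5.28% were called and 2692 passed the adjusted p at day 21. Without DMSO replicate 3, H2AZ1 and H2AX were called again, with H2AZ2 besides, beside 18.7% of all genes. In that setting 9 of 10 passed the adjusted p, and the share of all genes that did is not given here. The linker variant H1-10 was at 124, 125 and 105 against 239, 231 and 167 CPM and passed the adjusted p alone. At days 3, 7 and 14 none of the variants was called by edgeR. The unadjusted threshold was reached by 2, 1 and 4 of them, beside 23.8%, 8.77% and 24.6% of all genes. Without FAKi day 7 replicate 1, H3-3A was called higher at day 7, beside 1.14% of all genes. In DMSO from day 0 to day 21 the variant H2AZ1 rose by a log2 fold change of 1.49, and all 10 tested had a log2 fold change above 0.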

How the data were processed

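RNA was sequenced from 27 libraries of a TruSeq Stranded mRNA kit. The deposited values are raw read counts per gene, made by the authors with STAR 2.5.3a on hg38 and HOMER over the exons of GENCODE 39. The strand and multi-mapping settings are not given in the sources used here. From these counts TMM-scaled CPM and RPKM were computed, and edgeR 4.0.16 (limma 3.58.1, R 4.3.3) quasi-likelihood tests were run per comparison on all genes with at least 20 counts in its libraries, with Benjamini-Hochberg adjustment over those genes. A call needed an adjusted p no higher than 0.05 together with a change of more than 1 on the log2 scale. The tests were checked on simulated counts in which 200 of the more abundant genes changed by 2 on the log2 scale. Between 174 and 200 of these were called, with 2 to 15 false calls per comparison. Genes of low counts, smaller changes and libraries that stand apart were not covered by this check. Library totals of 12161994 to 43651551 leave few counts for most histone genes, which limits precision to counting error or worse. The rule for the histone genes used symbols and no counts, but this rule and the lists were set with earlier results of these data known. Histone genes were named with values where they were the 2 highest per class, were known to give polyadenylated messages, were called, or had the smallest p of a comparison. Others named in counts or sums, and the interactions with days 7 and 14, were chosen after the values were seen. At day 21 same-numbered FAKi and DMSO libraries deviated together (r = 0.478, 0.166 and 0.685 over 16956 genes), so the numbers were taken as pairs from the data. Alternatives were DESeq2 1.42.0, other filters and scalings, a single fit of all libraries, a replicate block and leaving out each library.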

Additional observations from a re-analysis of the deposited data

Results flagged for a closer look

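The effect of FAKi on H2BC12 differed between day 3 and day 14 in an interaction of treatment and day. The log2 fold change of H2BC12 was 1.84 higher at day 14 than at day 3, with an adjusted p of 0.00262 by edgeR. The sign of the effect was opposite at the 2 days in all 3 FAKi libraries of each. These days were chosen after the daily levels had been seen, so this p is not that of a planned test. In the planned test of day 3 against day 21 the change of H2BC12 was 0.90, with an adjusted p of 0.121 by edgeR.

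The summed level of the histone genes lay below all DMSO libraries in every FAKi library of day 3, by -33.6% in the means. It lay above all DMSO libraries in every FAKi library of day 7, by 36.2%, and of day 14, by 24.5%. The day 7 value was 24.01% without FAKi day 7 replicate 1, which nearly matches a day 14 library. The difference between these days was not tested for the sum. Groups of 3 libraries are too small for a check of single libraries against their group.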

How the results depend on the processing

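Leaving out each library in turn gave 0 to 3 called histone genes for FAKi against DMSO at day 3, 0 to 0 at days 7 and 14, and 0 to 3 at day 21. It gave 1 to 3 for DMSO day 21 against day 0, 0 to 1 for the change from day 3 to day 21, 0 to 4 to day 7 and 1 to 3 to day 14. The share of all genes called moved as well. Without DMSO day 3 replicate 1 it was 12.7% at day 3, and 5.51%, 5.11% and 11.1% for the changes to days 21, 7 and 14. Without DMSO day 21 replicate 3 it was 18.7% at day 21 and 36.9% for DMSO day 21 against day 0. Where a group kept 2 libraries, the spread was estimated over fewer samples. With no filter on low counts 2 were called at day 3, 1 at day 7, 2 for DMSO day 21 against day 0 and 1 for the change from day 3 to day 7. A single fit of the 27 libraries called 1 at day 3 and 2 for the change to day 14. The shares of all genes with no filter and in the single fit are not given here, so these counts are no result about the histone genes. The adjusted p alone passed 1 at day 14, beside 2918 of all 23443 genes, and 3 for DMSO day 21 against day 0, beside 9986 of 22259. The replicate block called 2 at day 21, beside 8.94% of all genes, and changed no other count of calls, although numbers paired the libraries only at day 21. The causes of these moves were not tested, beyond the fewer samples or other genes tested that each setting implies. The median log2 fold change of the histone genes kept its sign at days 3, 7 and 14, between -0.51 and -0.21, 0.29 and 0.70, and 0.13 and 0.92, and changed sign at day 21, between -0.11 and 0.11. The summed difference ranged from -37.2% to -18.5% at day 3, 24.01% to 42.9% at day 7, 16.2% to 44.1% at day 14 and -30.2% to 7.86% at day 21. Low counts limit most of the 65 genes, of which 26 had fewer than 20 counts in all.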
